A study of Mus musculus with 35 samples.

Results

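The matrix metalloproteinases (MMPs), the ADAMTS proteases and the tissue inhibitors of metalloproteinases (TIMPs) were followed across sorted mouse mammary cells. All genes whose symbol is Mmp, Adamts or Timp with a member number were taken, 1 probe set per gene, which gave 44 of the 19937 genes measured. They were 22 Mmp, 18 Adamts and 4 Timp genes. The members were taken by symbol, but this gene family was chosen with earlier results of these data known. Mmp15 and Adamts2 were not among the genes analysed here.

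MMPs and ADAMTS proteases are zinc enzymes that are made as inactive precursors and cut proteins of the extracellular matrix. MMPs as a family cleave collagens, basement membrane proteins and other matrix components, while several ADAMTS proteases cleave the large proteoglycans aggrecan and versican. TIMPs bind the active site of MMPs and block it. In the mammary gland MMPs and TIMPs take part in duct growth and in the tissue remodelling that follows weaning.

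Expression was measured on 1-colour arrays in 35 samples of sorted cells, 1 array per sample, each a pool of the 4th mammary glands of 5 mice. Parous mice were mated at 42 days of age, lactated for 21 days and were then left for 40 days of involution, in which the gland regresses once the young are weaned. The nulliparous controls were virgin mice of the same age. The 6 subpopulations were stromal cells, total epithelial cells, luminal CD24-high Sca1-negative and Sca1-positive cells, and basal CD24-low Sca1-negative cells with low or high CD49f. Every group had 3 samples of 10000 cells, with 1 exception. For basal CD49f-high cells 2000 cells were sorted per sample, and their parous group had 2 samples, since the submitters excluded 1 array for poor hybridisation. The labels name no strain.

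Levels are log2 values as deposited, and a difference of 1 is a change of 2.00-fold. They compare 1 gene between samples and not 1 gene with another, since probe sets differ in brightness. In a sorted pool, fewer cells of a type and less RNA per cell cannot be told apart. The sort labels were checked against marker genes. A list of fibroblast markers, 9 of 10 measured, averaged 10.14 to 10.67 in stromal samples and 5.70 to 7.22 in all others. Lists of 10 endothelial markers and of 6 pericyte and vascular smooth muscle markers were also highest in stromal samples. They averaged 6.91 to 7.92 and 7.58 to 7.94 there, and 5.36 to 6.61 and 5.57 to 6.18 in all others. A stromal level thus need not be that of fibroblasts alone. A list of 10 basal and myoepithelial markers averaged 9.77 to 10.58 in basal samples and 6.09 to 7.33 in luminal samples. A list of luminal markers, 9 of 10 measured, averaged 10.04 to 10.53 in luminal samples, but also 8.16 to 9.04 in basal samples and 6.61 to 8.56 in stromal samples. The lists for macrophages and dendritic cells, neutrophils and lymphocytes averaged 4.49 to 6.34 in every sample. Which pool of mice carries which number across subpopulations is not given by the labels. A pool named below by history and number stands for all samples of that history and replicate number. That these samples share mice is an assumption.

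Upstream sequences from RefSeq (GRCm38.p6) matched 30 of the 44 members. The 250 bases before the transcript start are printed for Adamts18, Timp1 and Timp2, which passed the test between parous and nulliparous samples below, and for Mmp3, the member with the largest stromal difference. Capitals mark a GC box, GGGCGG or CCGCCC on the other strand, in Adamts18, Timp1 and Timp2. In Mmp3 they mark an AP-1 motif, TGANTCA, followed by a TATA box, TATAAA.
Adamts18 (chr8:113848840-113849089, minus strand): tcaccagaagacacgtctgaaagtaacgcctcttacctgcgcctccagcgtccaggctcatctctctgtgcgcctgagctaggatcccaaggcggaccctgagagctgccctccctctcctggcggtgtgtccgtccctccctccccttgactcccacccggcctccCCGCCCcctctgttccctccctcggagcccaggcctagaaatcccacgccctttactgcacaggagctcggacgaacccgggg
Timp1 (chrX:20869916-20870165, plus strand): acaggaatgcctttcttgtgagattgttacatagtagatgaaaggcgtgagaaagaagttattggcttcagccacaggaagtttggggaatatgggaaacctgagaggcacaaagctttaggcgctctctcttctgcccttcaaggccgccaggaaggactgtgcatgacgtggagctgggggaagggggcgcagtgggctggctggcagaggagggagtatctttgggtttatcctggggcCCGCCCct
Timp2 (chr11:118355412-118355661, minus strand): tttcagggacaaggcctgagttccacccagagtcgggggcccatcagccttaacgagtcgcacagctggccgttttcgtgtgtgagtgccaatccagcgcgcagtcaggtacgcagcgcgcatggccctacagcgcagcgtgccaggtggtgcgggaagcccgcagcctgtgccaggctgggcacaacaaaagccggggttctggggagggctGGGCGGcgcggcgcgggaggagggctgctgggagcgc
Mmp3 (chr9:7445572-7445821, plus strand): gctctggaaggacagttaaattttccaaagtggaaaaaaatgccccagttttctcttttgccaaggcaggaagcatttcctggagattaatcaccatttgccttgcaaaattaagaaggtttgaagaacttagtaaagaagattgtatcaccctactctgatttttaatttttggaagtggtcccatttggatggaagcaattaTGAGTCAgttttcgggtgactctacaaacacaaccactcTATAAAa

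Both strands were searched, and no marked motif overlaps another in these 4 sequences. The GC box was found in 32.7% of the 32851 promoters of the table and upstream of 14 of the 30 members. The AP-1 motif was found in 6.75% of promoters and upstream of 8 members, Mmp1a, Mmp1b, Mmp3, Mmp7, Mmp10, Mmp12, Mmp13 and Mmp20. The TATA box was found in 12.4% of promoters and upstream of 9 members, 7 of which also hold the AP-1 motif. The STAT motif TTCNNNGAA, found in 7.02% of promoters, was upstream of 1 member, Mmp23. All 8 genes with the AP-1 motif lie in a run of 10 Mmp genes that are neighbours among coding genes in the order Mmp13, Mmp12, Mmp1b, Mmp3, Mmp1a, Mmp10, Mmp8, Mmp27, Mmp20 and Mmp7. Of these 10 neighbours, Mmp3 and Mmp27 differed between stromal and total epithelial cells, as given below, and the other 8 did not pass that test. A motif match in a window is a description and not a site.

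Most members had their highest level in stroma. The mean level was highest in stromal cells for 26 of the 44 members (59.1%), against 18.6% of all genes. Basal CD49f-high cells were highest for 8 members, basal CD49f-low cells for 4, luminal Sca1-negative cells for 4, luminal Sca1-positive cells for 2 and total epithelial cells for 0. Many members were dim. In 22 of the 44 (50.0%) the highest subpopulation mean lay under 6.0, the median over all genes and samples, against 42.3% of all genes, and these included 11 of the 26 with their highest level in stroma. For such genes the order can rest on small differences, as for Mmp12, with means of 5.20 in stromal and 5.17 in luminal Sca1-negative cells. The median range of a member over the 6 subpopulation means was 0.57, and that of all genes was 0.38.

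**Figure D1:**
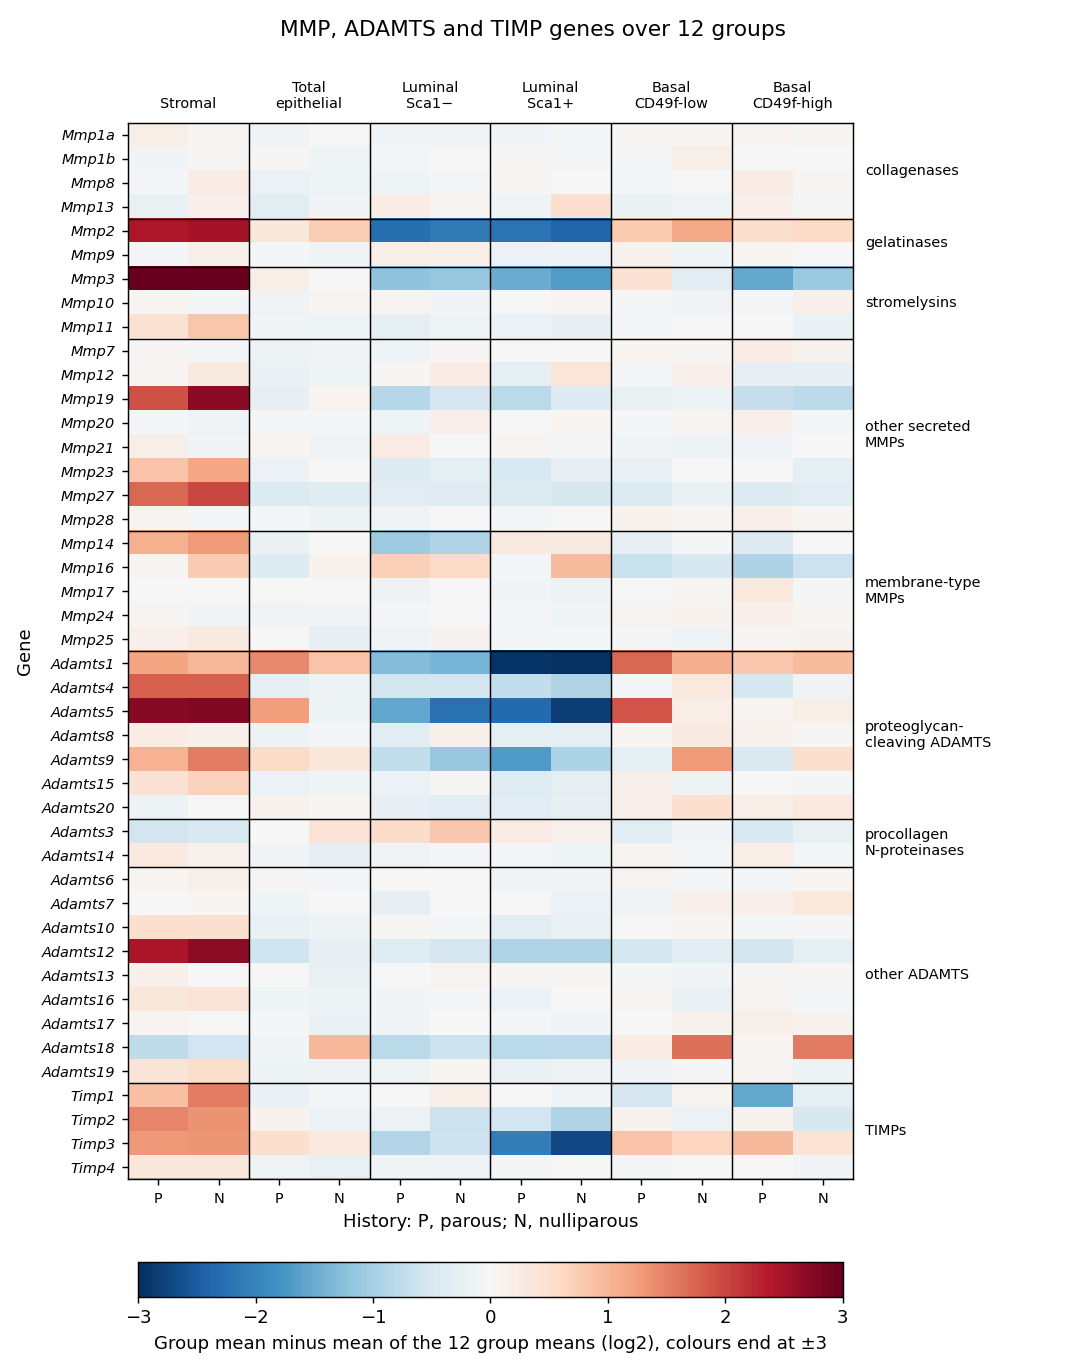
Mean level of each of the 44 members in the 12 groups, as the log2 difference of the group mean from the mean of the 12 group means, with parous (P) left of nulliparous (N) samples and genes grouped by role. The stromal columns hold the strongest positive values, the luminal columns the strongest negative ones (Adamts1, Adamts5, Mmp2 and Timp3), and contrasts between parous and nulliparous columns are seen for Adamts5, Adamts18, Timp1 and, in basal CD49f-low cells, Adamts9, which did not pass the test.

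Stromal cells were compared with total epithelial cells to describe where the matrix enzymes are made. All 35 samples were fitted together with limma, p-values were adjusted over all 19937 genes by the Benjamini-Hochberg method, and a gene with an adjusted p under 0.05 was called. Of the 44 members, 23 were higher and 2 lower in stromal cells, while 13.6% of all genes were higher and 15.6% lower. The median difference was 0.33 over members and 0.02 over all genes. By role, those higher in stromal cells were 4 of 4 TIMPs, 5 of 7 proteoglycan-cleaving ADAMTS proteases and 3 of 8 other secreted MMPs. The counts were 3 of 5 for membrane-type MMPs, 2 of 3 for stromelysins, 1 of 2 for gelatinases and 0 of 4 for collagenases. The remaining higher members were other ADAMTS proteases and a procollagen N-proteinase, named below. The 2 lower members also belong to these roles.

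Mmp3, stromelysin 1, which cleaves many matrix proteins and activates other MMPs, had the largest difference. Its lowest, median and highest levels were 9.70, 10.30 and 10.62 in the 6 stromal samples and 5.01, 6.46 and 7.41 in the 6 total epithelial samples. The groups did not overlap, and the difference was 3.87 (SE 0.32, limma adjusted p = 4.5e-11), 14.6-fold. Mmp11, stromelysin 3, was higher by 0.75, and Mmp10 did not pass.

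Among the secreted MMPs without a shared class name, Mmp19 was higher in stromal cells by 2.40, Mmp27 by 2.24 and Mmp23 by 1.10. Mmp27 ran from 6.03 to 6.70 in stromal samples and from 4.06 to 4.42 in total epithelial samples, and it stayed within 4.02 to 4.52 in all samples of the other 4 subpopulations. Its level was thus nearly flat outside stroma. Mmp7, the matrilysin, and Mmp12, the macrophage metalloelastase, had subpopulation means of 4.97 to 5.24 and 4.79 to 5.20, and neither passed any comparison here.

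Mmp2, gelatinase A, which degrades gelatin and type IV collagen, was high in stroma and in basal cells. Its lowest, median and highest levels were 11.06, 11.14 and 11.36 in stromal samples and 8.60, 9.19 and 10.01 in total epithelial samples, a difference of 1.93 (SE 0.17, limma adjusted p = 1.2e-10). The other gelatinase, Mmp9, had subpopulation means of 4.98 to 5.32 and did not pass between stromal and total epithelial cells. The collagenases Mmp1a, Mmp1b, Mmp8 and Mmp13 did not pass either. Mmp13 means were 4.84 to 5.24, with a single nulliparous Sca1-positive sample at 6.56. Mmp1a and Mmp1b are close copies, so a probe set of one may also read the other.

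Mmp14, the membrane-type MMP that sits on the cell surface and activates the Mmp2 precursor, was higher in stromal cells by 1.29 (SE 0.11). Its stromal samples lay at 9.94 to 10.34 and its total epithelial samples at 8.65 to 9.02, with no overlap. Mmp16 was higher by 0.56 and Mmp25 by 0.33. Both calls were lost with quantile normalization, and also when any of 9 of the 12 samples was left out for Mmp16 (adjusted p up to 0.153) and any of 5 for Mmp25 (up to 0.11).

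Adamts12 was the ADAMTS gene with the largest stromal difference, 2.98 (SE 0.12, limma adjusted p = 1.29e-18). Its levels were 8.39 to 9.26 in stromal samples and 5.48 to 6.08 in total epithelial samples. The proteoglycan-cleaving Adamts5 was higher by 2.19, Adamts4 by 2.01, Adamts9 by 0.83 and Adamts15 by 0.71. Adamts8 was higher by 0.27. The calls for Adamts8 and Adamts9 were lost when any of 8 and any of 10 of the 12 samples was left out, with adjusted p up to 0.185 for Adamts8 and 0.0986 for Adamts9. Adamts10, Adamts16 and Adamts19 were higher by 0.68, 0.51 and 0.62, and Adamts14, a procollagen N-proteinase, by 0.38. The 2 members that were lower in stromal cells were Adamts18, by a difference of -1.11, and the procollagen N-proteinase Adamts3, at -0.70. The Adamts3 call was lost with quantile normalization (adjusted p = 0.0658) and when any of 6 samples was left out (up to 0.13).

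All 4 TIMPs, the inhibitors, were also higher in stromal cells. Timp2 was higher by 1.46 (SE 0.09), Timp1 by 1.34 (SE 0.19), Timp3 by 0.91 (SE 0.16) and Timp4 by 0.51 (SE 0.12). Timp4 was dim, with its highest subpopulation mean at 5.12. Timp2, which both inhibits MMPs and forms the complex with Mmp14 that activates Mmp2, ran from 10.57 to 10.84 in stromal samples and from 9.08 to 9.54 in total epithelial samples. The groups did not overlap.

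Against basal CD49f-low cells, 19 members were higher and 2 lower in stromal cells, beside 12.1% and 14.3% of all genes, and the medians were 0.18 over members and -0.02 over all genes. Both comparisons share the stromal samples. Mmp3 was higher by 3.90, Adamts12 by 2.99, Mmp19 by 2.51, Mmp27 by 2.16 and Adamts5 by 1.71. Mmp2, Timp2, Timp1 and Mmp14 were higher by 1.5, 1.45, 1.42 and 1.31. The 2 that were lower were Adamts18 at -1.60 and Adamts20 at -0.41. Adamts1, which cleaves versican, passed in neither comparison. Its levels were 10.81 to 11.20 in stromal samples, 10.67 to 11.39 in total epithelial samples and 10.85 to 11.68 in basal CD49f-low samples.

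**Figure D2:**
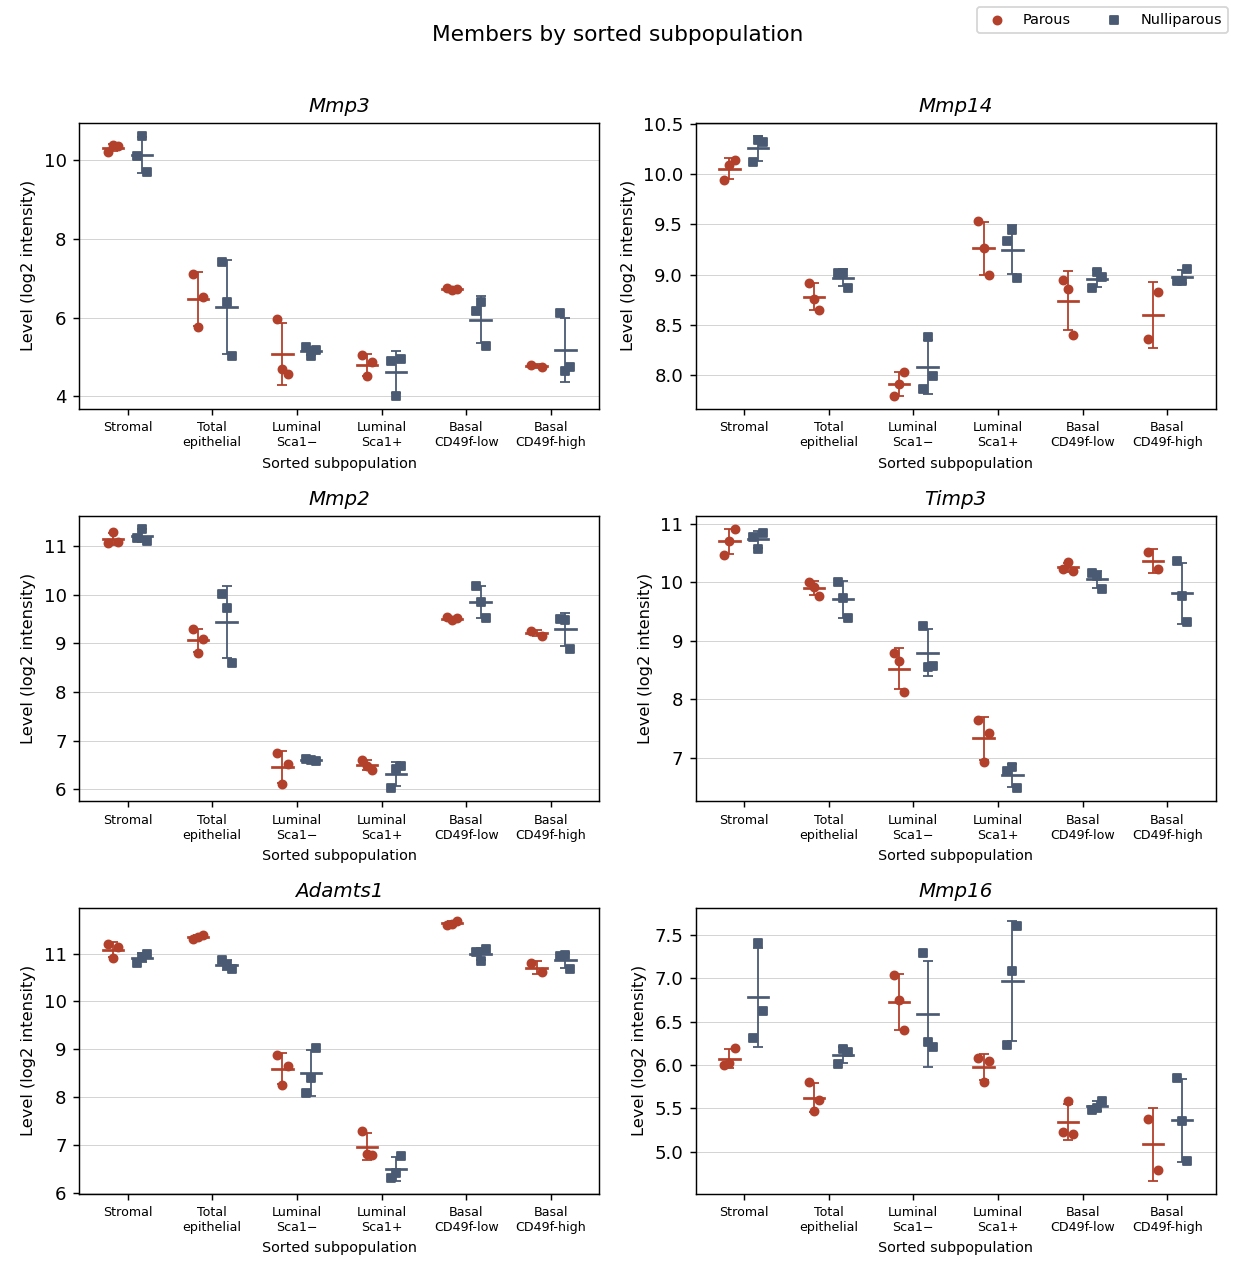
Level (log2) of Mmp3, Mmp14, Mmp2, Timp3, Adamts1 and Mmp16 in every sample by sorted subpopulation, parous left of nulliparous, with group means (lines) and SD (bars). Mmp3 exceeds 9.5 in the stromal samples alone, Mmp2 and Adamts1 are high in stromal and basal samples, Mmp14 is lowest in luminal Sca1-negative samples, and the mean of Mmp16 is higher in luminal than in basal samples.

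Within the epithelium, basal cells were compared with luminal cells, each averaged over their 2 subpopulations. Of the 44 members, 16 were higher and 3 lower in basal cells, while 15.5% of all genes were higher and 19.5% lower. The medians were 0.13 over members and 0.00 over all genes. All 7 proteoglycan-cleaving ADAMTS genes were higher in basal cells, with differences of 3.40 for Adamts1, 2.82 for Adamts5, 1.39 for Adamts9, 0.59 for Adamts4, 0.57 for Adamts20, 0.30 for Adamts8 and 0.20 for Adamts15. The Adamts15 call was lost when any of 8 of the 23 samples was left out (adjusted p up to 0.101).

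Adamts1 separated the epithelial layers most. Its lowest, median and highest levels were 10.85, 11.34 and 11.68 in basal CD49f-low samples and 10.61, 10.80 and 10.96 in basal CD49f-high samples. In luminal Sca1-negative samples they were 8.09, 8.53 and 9.02, and in luminal Sca1-positive samples 6.31, 6.79 and 7.30. Basal and luminal samples did not overlap, and the difference was 10.6-fold (SE 0.09 on the log2 scale, limma adjusted p = 1.49e-22).

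Mmp2 was higher in basal cells by 3.00 (SE 0.12), with 9.48 ± 0.34 in basal samples (SD, n = 11) and 6.46 ± 0.21 in luminal samples (SD, n = 12). Timp3, the TIMP that binds matrix and also inhibits several ADAMTS proteases, was higher by 2.29 (SE 0.11), with 10.10 ± 0.33 in basal and 7.83 ± 0.94 in luminal samples. Neither gene's groups overlapped. Adamts18 was higher in basal cells by 1.63, Mmp3 by 0.74, Timp2 by 0.46, Adamts12 by 0.25, Adamts7 by 0.24, Mmp23 by 0.23 and Mmp17 by 0.19. The calls for Adamts12 and Mmp23 were lost without parous basal CD49f-high sample 2 (adjusted p = 0.0924 and 0.0804).

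The 3 members that were lower in basal cells were the membrane-type Mmp16 at -1.24 (SE 0.15), Adamts3 at -0.71 (SE 0.18) and Timp1 at -0.59 (SE 0.14). Mmp16 averaged 5.35 ± 0.31 in basal samples and 6.57 ± 0.57 in luminal samples (SD, n = 11 and 12), and the groups overlapped. Timp1 and Timp3, inhibitors of overlapping sets of MMPs, thus had differences of opposite sign between the epithelial layers.

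**Figure D3:**
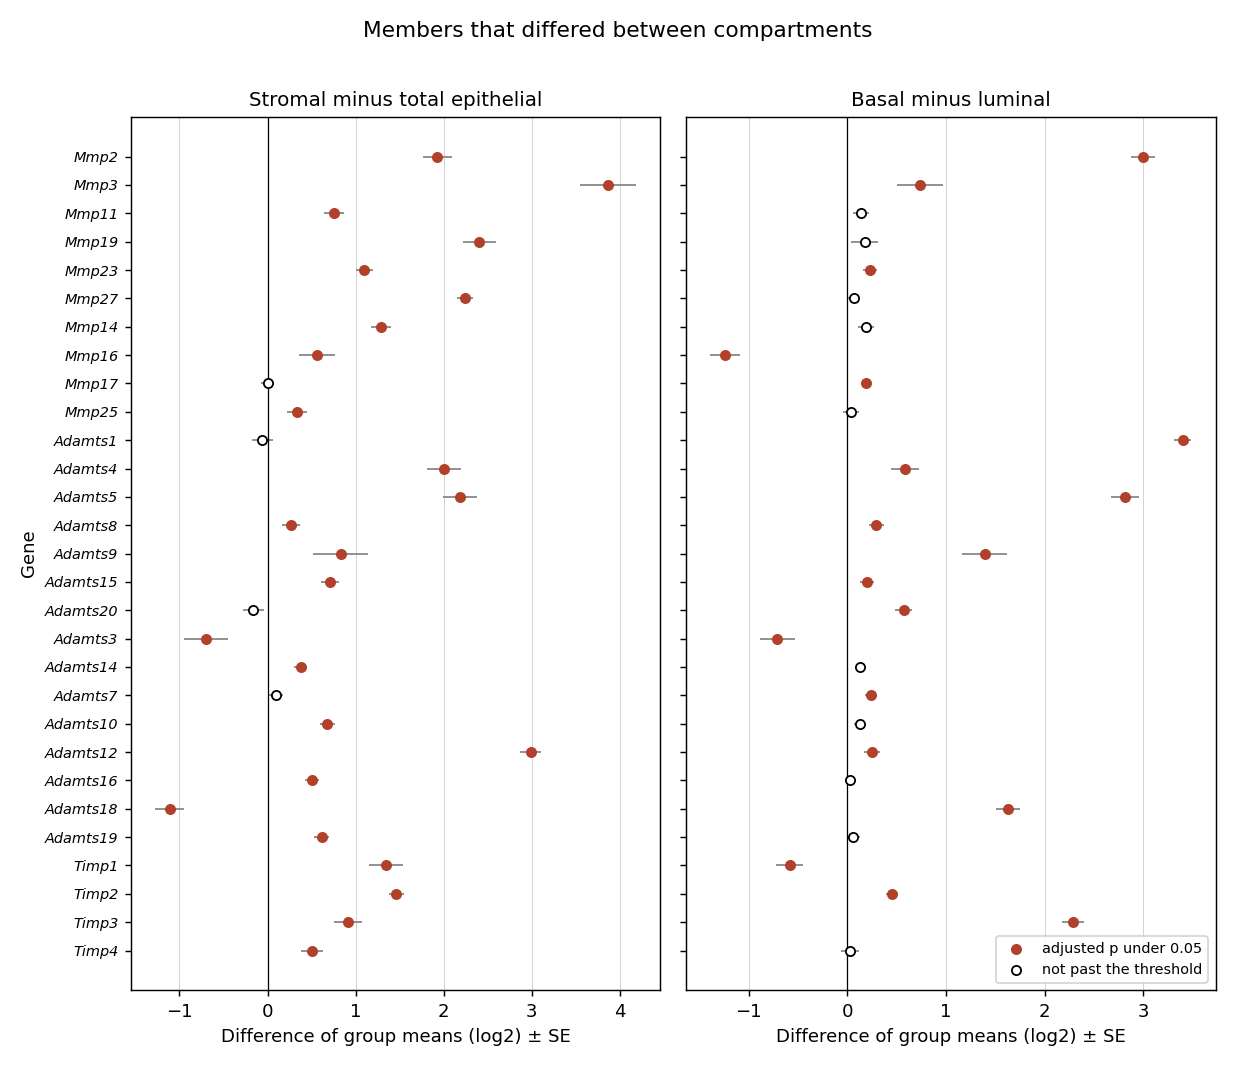
Differences of group means (log2, points) with the SE of the limma fit (bars) for the 29 members called in either comparison, stromal minus total epithelial cells on the left and basal minus luminal cells on the right; filled points passed an adjusted p of 0.05. Mmp3 and Adamts12 differ mainly between stroma and epithelium, Adamts1 and Timp3 mainly between basal and luminal cells, and Adamts18 is lower in stroma and higher in basal cells.

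Luminal Sca1-positive cells were compared with luminal Sca1-negative cells. Of the members, 1 was higher and 7 were lower in Sca1-positive cells, while 9.0% of all genes were higher and 7.11% lower. The 1 higher member was Mmp14, by 1.26 (SE 0.11, limma adjusted p = 8.92e-10). Its levels were 8.97 to 9.53 in Sca1-positive samples and 7.79 to 8.38 in Sca1-negative samples, with no overlap, and Sca1-positive cells had the highest mean Mmp14 of the 4 sorted epithelial subpopulations. Adamts1 was lower in Sca1-positive cells by a difference of -1.81 and Timp3 by -1.64, again with no overlap between the groups. Adamts5 at -0.69, Adamts12 at -0.47, Mmp9 at -0.34, Timp2 at -0.33 and Adamts10 at -0.28 were also lower. The Adamts5 call was lost without parous or nulliparous Sca1-positive sample 3 (adjusted p = 0.0637 and 0.0526), and the Mmp9 call when any of 6 samples was left out (up to 0.1).

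Basal CD49f-high cells were compared with basal CD49f-low cells. No member was higher and 4 were lower in CD49f-high cells, while 1.05% of all genes were higher and 2.48% lower. Mmp3 was lower by a difference of -1.37, Adamts5 by -0.90, Timp1 by -0.71 and Adamts1 by -0.53, and all 4 calls were lost with array weights, with adjusted p of 0.0625, 0.119, 0.232 and 0.0949. The Mmp3 call was also lost without nulliparous CD49f-low sample 2 (0.057), the Adamts1 call without any of 3 samples (up to 0.0706) and the Timp1 call without any of 8 (up to 0.166). Mmp3 ran from 4.64 to 6.11 in the 5 CD49f-high samples and from 5.27 to 6.76 in the 6 CD49f-low samples, so they overlapped. Fibroblast markers averaged 5.72 to 6.34 in CD49f-high samples and 6.09 to 6.96 in CD49f-low samples, and their part in these differences was not tested.

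Across the 12 group means, Adamts12 and Mmp27 had the most alike profiles of any pair of members (Pearson's r = 0.991), followed by Mmp19 with Mmp23 (0.971). A set of 9 members was also compared, Mmp2, Mmp3, Mmp13, Mmp14, Timp1, Timp2, Timp3, Adamts1 and Adamts5. Within this set Adamts1 was most like Timp3 (0.957), Mmp3 most like Timp2 (0.942) and Adamts5 most like Mmp2 (0.939). Outside the set, Mmp3 was more like Adamts4 (0.965) and Mmp19 (0.957) than Timp2. The surface activator Mmp14 and its target Mmp2 were less alike (0.618). These are descriptions over 12 groups that share arrays and cell types, in which the stromal groups lie apart.

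The study's main question was what an early pregnancy leaves behind in each subpopulation. In stromal cells 0 members were called higher and 0 lower in parous mice, with 0.105% of all genes higher and 0.492% lower. An unadjusted p under 0.05 by limma was found there for 7 members (15.9%), beside 9.16% of all genes. Luminal Sca1-negative cells likewise had 0 and 0 (0.662% and 0.341% of all genes). Before adjustment 5 members (11.4%) were under 0.05 there, beside 11.4% of all genes. Luminal Sca1-positive cells had 0 and 0 (0.426% and 0.181% of all genes), with 6 members (13.6%) under 0.05 before adjustment, beside 6.63% of all genes. The array-weighted fit called 2 members in luminal Sca1-negative cells, and the share of all genes it called is not given here.

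In total epithelial cells 1 member rose and 1 fell with parity (0.166% and 0.281% of all genes), and in basal CD49f-low cells again 1 rose and 1 fell (0.286% and 0.682%). In basal CD49f-high cells 1 rose and 2 fell (4.01% and 5.05%). Averaged over the 4 sorted epithelial subpopulations, 2 rose and 2 fell (2.72% and 3.49%). The genes were Adamts5, Adamts18, Timp2 and Timp1. Arrays agreed least in basal CD49f-high cells, with Pearson's r of 0.9627 between parous samples and 0.9686 to 0.9777 among nulliparous ones. In the other groups the lowest r was 0.9772. The fit shares 1 estimate of the spread per gene over all 12 groups. The collagenases, gelatinases, stromelysins, other secreted MMPs, membrane-type MMPs and procollagen N-proteinases gave no call for parity in any single subpopulation or in the mean.

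Adamts5, an aggrecanase that cleaves aggrecan and versican, rose in parous epithelium. In basal CD49f-low cells its levels were 9.40, 9.59 and 8.98 in parous samples and 7.59, 7.06 and 8.26 in nulliparous samples. All 3 parous samples lay above all 3 nulliparous samples, and the difference was 1.69 (SE 0.28, limma adjusted p = 0.000813), 3.22-fold. In total epithelial cells its levels were 8.92, 8.62 and 8.59 in parous samples and 7.47, 7.11 and 7.34 in nulliparous samples. The groups again did not overlap, and the difference was 1.41 (SE 0.28, adjusted p = 0.0104), 2.65-fold.

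The other subpopulations differed less in Adamts5. Its levels were 6.14, 5.51 and 6.04 in parous and 5.03, 5.15 and 5.46 in nulliparous luminal Sca1-negative samples, which did not overlap but did not pass the test. They were 5.87, 5.01 and 4.44 in parous and 4.87, 4.83 and 4.17 in nulliparous luminal Sca1-positive samples, which overlapped. Basal CD49f-high samples were at 7.58 and 7.50 in parous and 7.85, 7.21 and 7.79 in nulliparous mice, and stromal samples at 10.26, 10.20 and 10.04 in parous and 10.17, 10.15 and 10.34 in nulliparous mice. Both of these pairs of groups overlapped.

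The mean effect on Adamts5 over the 4 sorted epithelial subpopulations was 0.69 (SE 0.14, adjusted p = 0.00256), a call that held in all 35 alternative settings. The effect in basal CD49f-high cells minus that in CD49f-low cells, a comparison added after the values were seen, was -1.77 (SE 0.42, adjusted p = 0.0207). Adamts5 was the 1 member called lower in that comparison and 0 were called higher, beside 1.28% and 0.988% of all genes, and the call was lost in 7 of 22 settings, with adjusted p up to 0.231. The total epithelial call was lost without parous sample 1 (adjusted p = 0.0666), parous sample 2 (0.056) or nulliparous sample 2 (0.105). The basal CD49f-low call missed the threshold when that subpopulation was fitted alone (0.0528).

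Adamts18, a secreted ADAMTS protease, fell in parous basal cells. In basal CD49f-low cells its levels were 6.71, 6.13 and 6.57 in parous samples and 7.83, 8.48 and 7.42 in nulliparous samples, a difference of -1.44 (SE 0.23, limma adjusted p = 0.000765). In basal CD49f-high cells they were 6.41 and 6.22 in parous samples and 7.72, 8.09 and 7.64 in nulliparous samples, a difference of -1.50 (SE 0.26, adjusted p = 0.000427). The parous samples lay below the nulliparous ones in both. In total epithelial cells the levels were 6.44, 6.14 and 5.94 in parous samples and 6.81, 7.97 and 6.89 in nulliparous samples, a difference of -1.05 (SE 0.23, adjusted p = 0.0296).

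Outside basal and total epithelial samples Adamts18 ran from 5.25 to 5.75, so the parous basal samples were closer to the luminal and stromal range than the nulliparous basal samples were. Its mean effect over the 4 sorted epithelial subpopulations was -0.78 (SE 0.12, adjusted p = 0.00012) and held in all 35 settings. The total epithelial call was lost without nulliparous sample 2, where the difference was -0.68 (adjusted p = 0.424), and without parous sample 2 or 3 (0.134 and 0.215). In basal CD49f-high and CD49f-low cells the call was lost when each was fitted alone (0.149 and 0.074).

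Timp2 rose by a smaller amount. In basal CD49f-high cells its levels were 9.47 and 9.34 in parous samples and 8.90, 8.54 and 9.02 in nulliparous samples, a difference of 0.58 (SE 0.14, limma adjusted p = 0.00579), 1.5-fold. In luminal Sca1-negative cells they were 9.09, 9.30 and 9.0 in parous samples and 8.52, 8.72 and 8.76 in nulliparous samples, which did not overlap and gave a difference of 0.46 (adjusted p = 0.0594). The differences in luminal Sca1-positive, basal CD49f-low and total epithelial cells were 0.32, 0.28 and 0.29, and none of the 3 passed. The mean over the 4 sorted subpopulations was 0.41 (SE 0.06, adjusted p = 9e-05), 1.33-fold, and it held in all 35 settings. The CD49f-high call was lost without parous sample 2 (adjusted p = 0.0621), with array weights (0.0957) and with that subpopulation fitted alone (0.426).

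Timp1, an inhibitor of most secreted MMPs, fell in basal CD49f-high cells. Its levels were 5.13 and 4.61 in parous samples and 6.32, 6.04 and 6.0 in nulliparous samples, with no overlap and a difference of -1.25 (SE 0.30, limma adjusted p = 0.00829). In basal CD49f-low cells they were 5.84, 6.22 and 5.67 in parous and 6.75, 6.14 and 6.61 in nulliparous samples, which overlapped. The CD49f-high call was lost without parous sample 3 (adjusted p = 0.116), with array weights (0.16) and with that subpopulation fitted alone (0.169). The mean effect of -0.48 (SE 0.14, adjusted p = 0.0353) was lost in 14 of 35 settings, and without CD49f-high cells it was -0.22 (adjusted p = 0.6).

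**Figure D4:**
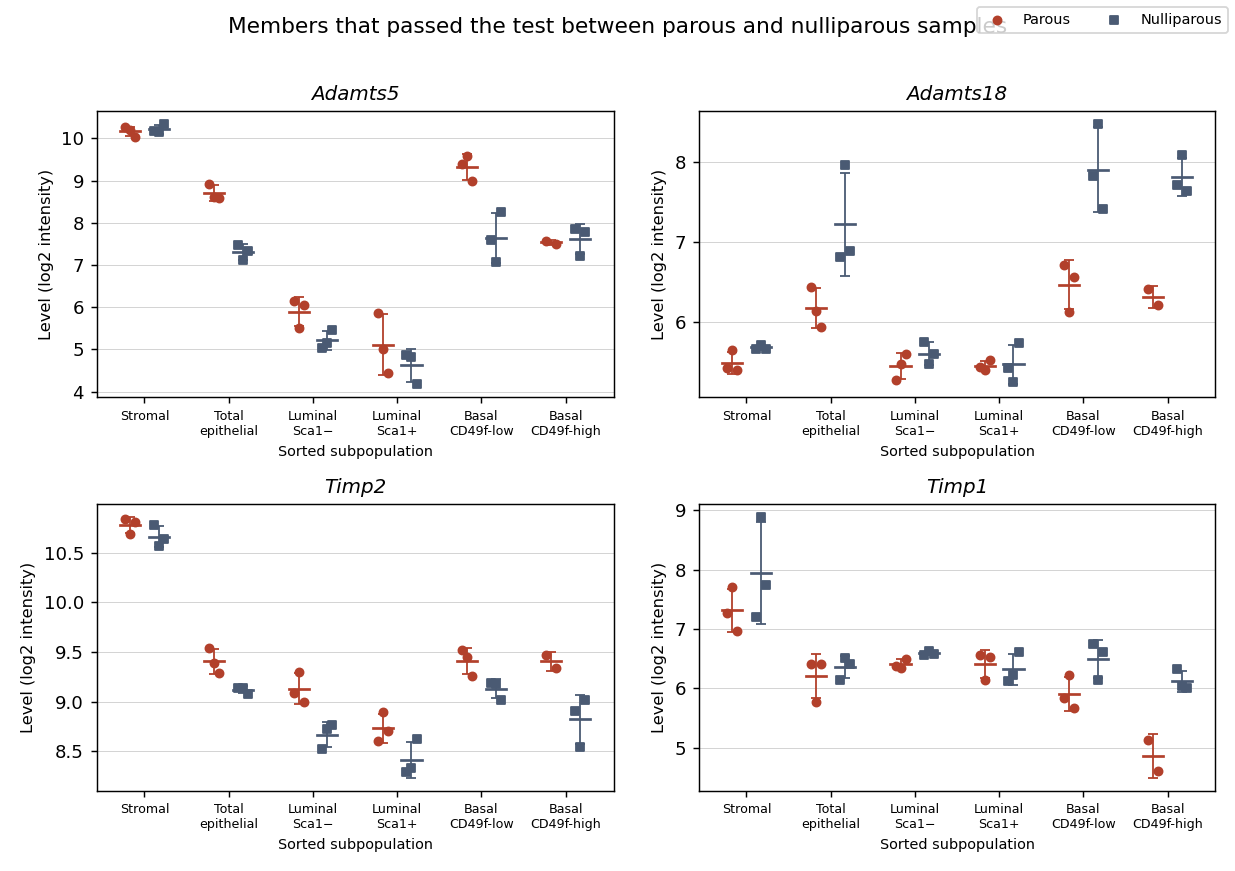
Level (log2) of Adamts5, Adamts18, Timp2 and Timp1 in every sample by sorted subpopulation, parous left of nulliparous, with group means (lines) and SD (bars). Adamts5 is higher in parous total epithelial and basal CD49f-low samples (8.59 to 9.59) than in nulliparous ones (7.06 to 8.26), Adamts18 is lower in parous basal samples, Timp2 differs little but in the same direction in every subpopulation mean, and Timp1 is lowest in the 2 parous basal CD49f-high samples.

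A moderated F test asked whether the parity effect varied over the 6 subpopulations. It passed for 2 members, Adamts18 (adjusted p = 0.00768) and Adamts5 (0.0194), while 2.80% of all genes passed. Without pool 2 of the parous mice in every subpopulation neither passed (0.114 and 0.156), and without nulliparous pool 1 Adamts5 did not (0.103). In luminal and stromal samples Adamts18 lay at 5.25 to 5.75, under the median of 6.0 over all genes, where a fall could hardly be measured. The parity effect in stromal cells was also compared with the mean effect of the 4 sorted epithelial subpopulations. It was called higher for 0 members and lower for 0 (0.145% and 0.421% of all genes).

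Other proteoglycan-cleaving ADAMTS genes did not pass for parity. Adamts1 was at 11.59, 11.62 and 11.68 in parous and 11.03, 10.85 and 11.09 in nulliparous basal CD49f-low samples, with no overlap and a difference of 0.64 (adjusted p = 0.0745). Adamts9 was at 8.43, 6.50 and 8.53 in parous and 9.29, 9.53 and 9.29 in nulliparous basal CD49f-low samples, a difference of -1.55 (adjusted p = 0.0978). Its other 5 probe sets gave differences of -0.48 to -0.95. Adamts4 was at 6.41, 6.57 and 6.19 in parous and 7.0, 6.69 and 6.46 in nulliparous samples of these cells, which overlapped (adjusted p = 0.758).

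Cell type markers moved with some of these results. Fibroblast markers averaged 6.09 to 6.31 in parous and 6.52 to 6.96 in nulliparous basal CD49f-low samples. Of these markers 1 of 9 was called lower, beside 0.682% of all genes. In total epithelial cells they averaged 6.22 to 6.76 in parous and 6.47 to 7.22 in nulliparous samples, with 0 of 9 called. Of the members called for parity, Adamts5, Timp1 and Timp2 had their highest mean level in stromal cells, and Adamts18 in basal CD49f-high cells. In basal CD49f-high cells fibroblast markers averaged 5.74 to 5.84 in parous and 5.72 to 6.34 in nulliparous samples. The 10 basal and myoepithelial markers averaged 10.47 to 10.58 in parous and 9.77 to 10.25 in nulliparous samples of these cells. Of these 10, 4 were called higher, beside 4.01% of all genes. In luminal Sca1-negative cells the basal markers averaged 7.14 to 7.33 in parous and 6.63 to 6.90 in nulliparous samples. There 3 of 10 were called higher, beside 0.662% of all genes. The part of these shifts in the parity differences was not tested.

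Genes that act with the members were taken as 4 lists. MMP activation and control had 14 measured genes, ADAM and astacin proteases 12, ADAMTS-like proteins 6 and matrix substrates 10. In the mean over the 4 sorted epithelial subpopulations, 2 of 14 activation and control genes rose and 1 fell, 0 of 12 ADAM and astacin genes rose and 1 fell, 1 of 6 ADAMTS-like genes rose and 0 fell, and 0 of 10 substrates rose and 2 fell. These calls stand beside the 2.72% and 3.49% of all genes given above.

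Among the substrates, Vcan, which encodes the proteoglycan versican that Adamts1, Adamts4, Adamts5 and Adamts9 cleave, fell most. In basal CD49f-high cells its levels were 7.31 and 6.88 in parous samples and 9.55, 10.52 and 10.95 in nulliparous samples, a difference of -3.24 (SE 0.40, limma adjusted p = 7.26e-06), 9.47-fold lower, which was lost with that subpopulation fitted alone (0.102). In total epithelial cells they were 8.11, 7.98 and 7.90 in parous samples and 9.09, 9.99 and 9.93 in nulliparous samples, a difference of -1.67 (adjusted p = 0.0218). The total epithelial groups did not overlap, but that call was lost when any of 5 of the 6 samples was left out, with adjusted p up to 0.185.

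In basal CD49f-low cells Vcan was at 8.70, 8.38 and 8.26 in parous and 8.64, 10.20 and 10.38 in nulliparous samples, which overlapped through 1 nulliparous sample and did not pass. Nulliparous stromal samples were at 9.83, 10.02 and 10.37, within the range of the nulliparous basal samples. The mean Vcan effect of -1.14 (adjusted p = 0.000186) was -0.44 without CD49f-high cells (adjusted p = 0.348). The Vcan effect in CD49f-high minus that in CD49f-low cells was -1.95 (adjusted p = 0.0493), a call lost in 11 of 22 settings. In that comparison Plat was also called lower, and the substrate genes Fn1 and Eln were called higher. Of all genes, 1.28% were called lower and 0.988% higher. The calls for Plat, Fn1 and Eln were lost in 12, 12 and 10 of 22 settings.

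Col4a1, a chain of the type IV collagen of basement membranes, fell in basal CD49f-high cells, with 7.33 and 7.47 in parous and 8.44, 8.25 and 7.96 in nulliparous samples (difference -0.81, adjusted p = 0.0053). Eln, which encodes elastin, rose there by 0.97 (adjusted p = 0.0112), at 9.26 and 8.43 in parous and 8.45, 7.60 and 7.56 in nulliparous samples, which overlapped. Each call was lost without parous sample 2, where the differences were -0.74 for Col4a1 (adjusted p = 0.0514) and 0.56 for Eln (0.28). The Eln call was also lost without nulliparous sample 2 (0.0608) or 3 (0.0606). Col3a1, a fibrillar collagen gene, was the 1 gene of the 4 lists called in stromal cells, beside 0.105% of all genes higher and 0.492% lower. It was at 8.90, 8.59 and 9.0 in parous and 9.22, 10.11 and 9.78 in nulliparous samples, with no overlap and a difference of -0.88 (adjusted p = 0.00201). With stromal samples fitted alone the call was lost (0.307). Fibroblast markers, among which Col3a1 is listed, averaged 10.14 to 10.36 in parous and 10.40 to 10.67 in nulliparous stromal samples. Endothelial markers averaged 6.91 to 7.17 and 7.34 to 7.92 there, with 1 of 10 called lower. Basal and myoepithelial markers averaged 7.35 to 7.59 and 7.88 to 7.93, with 2 of 10 called lower. Pericyte and vascular smooth muscle markers overlapped, at 7.82 to 7.94 and 7.58 to 7.94. The part of these shifts in the Col3a1 difference was not tested.

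Adamtsl1, a secreted relative of the ADAMTS proteins without a protease domain, rose in the same subpopulations in which Adamts18 fell. In total epithelial cells its levels were 6.71, 6.88 and 6.71 in parous and 5.49, 5.65 and 5.53 in nulliparous samples, a difference of 1.21 (SE 0.16, adjusted p = 7.81e-05). In basal CD49f-low cells they were 7.15, 7.37 and 6.87 in parous and 5.91, 6.13 and 5.93 in nulliparous samples, a difference of 1.14 (adjusted p = 0.000142). In basal CD49f-high cells they were 6.29 and 6.84 in parous and 5.79, 5.49 and 5.77 in nulliparous samples, a difference of 0.89 (adjusted p = 0.00176). None of these groups overlapped, and the total epithelial and CD49f-low calls held in all 17 settings tried for each. The CD49f-high call was lost without parous sample 3, where the difference was 0.61 (adjusted p = 0.0762), and with that subpopulation fitted alone (0.26).

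Reck, a membrane-anchored MMP inhibitor, was at 9.20 and 8.74 in parous and 7.96, 7.16 and 7.48 in nulliparous basal CD49f-high samples, a difference of 1.44 (SE 0.26, adjusted p = 0.000556), lost with that subpopulation fitted alone (0.217). Without CD49f-high cells its mean effect was 0.05 (adjusted p = 0.923). Thbs1, which encodes the matrix protein thrombospondin 1, fell in the mean by 0.60 (adjusted p = 0.000158), a call that held in all 35 settings. In basal CD49f-low cells it was at 10.60, 10.71 and 10.61 in parous and 11.11, 11.66 and 11.41 in nulliparous samples, and in basal CD49f-high cells at 10.78 and 10.76 in parous and 11.30, 11.82 and 11.47 in nulliparous samples. The groups did not overlap in either, and the differences were -0.75 (adjusted p = 0.0419) and -0.76 (0.0183), calls that were lost when any of 5 of 6 and any of 3 of 5 samples was left out.

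Pcolce, which enhances cleavage of procollagen, rose in luminal Sca1-positive cells by 0.99 (SE 0.21, adjusted p = 0.0142). The call was lost without parous sample 1 (0.14) or 2 (0.104) or nulliparous sample 2 (0.0821) or 3 (0.0765). Its levels there were 8.15, 8.02 and 7.44 in parous and 7.04, 6.80 and 6.79 in nulliparous samples. In the same cells 10 endothelial markers averaged 5.86 to 6.25 in parous and 5.36 to 5.65 in nulliparous samples, without overlap. Their median difference was 0.43, 0 of 10 were called and 4 had an unadjusted p under 0.05 by limma, beside 6.63% of all genes. The part of these markers in the Pcolce difference was not tested. Adam17, the sheddase that releases growth factor precursors from the cell surface, fell in the mean by 0.34 (adjusted p = 0.00271), which held in all 35 settings. Plat, the tissue plasminogen activator, and Adam9 fell in basal CD49f-high cells by 0.97 and 0.60. Without parous sample 3 both calls were lost, with differences of -0.51 for Plat (adjusted p = 0.378) and -0.55 for Adam9 (0.0709), and the Plat call was also lost without nulliparous sample 1 (0.0953). Of the 42 list genes, 8 were called in basal CD49f-high cells, beside 4.01% of all genes called higher and 5.05% lower. These 8, Plat, Reck, Thbs1, Adam9, Adamtsl1, Col4a1, Eln and Vcan, lost the call with that subpopulation fitted alone (adjusted p of 0.102 to 0.481). Plat, Thbs1, Adam9 and Col4a1 lost it with array weights too (0.132 to 0.216).

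**Figure D5:**
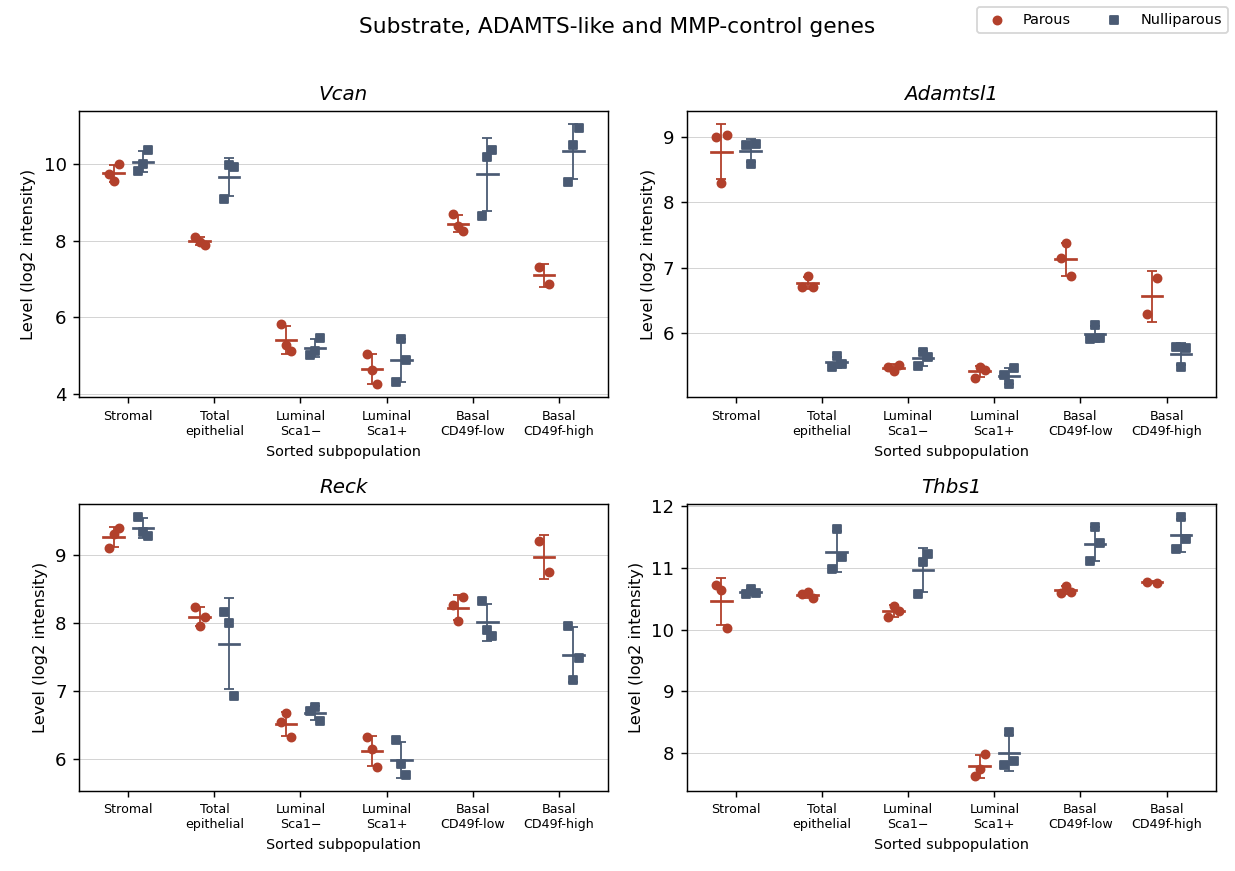
Level (log2) of Vcan, Adamtsl1, Reck and Thbs1 in every sample by sorted subpopulation, parous left of nulliparous, with group means (lines) and SD (bars). Vcan is lowest of all basal samples in the 2 parous CD49f-high samples, Adamtsl1 is higher in parous total epithelial and basal samples, Reck differs in CD49f-high cells, and Thbs1 is lower in parous total epithelial, luminal Sca1-negative and basal samples.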

How the data were processed

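Expression arrays of 35 sorted mouse mammary samples were analysed. The log2 values per probe set are as the authors deposited them. Per the submitters' processing notes affy was used; for its version, the normalization, the summary method and the build, the entry is "not given in the sources used here". Column medians of 5.81 to 5.92 are near equal. GEO's platform annotation gave 1 gene for 21640 of 34760 probe sets, several for 1321 and none for 11799; genes with several probe sets kept the one with the highest mean.

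With limma 3.58.1 in R 4.3.3, 12 group means were fitted (lmFit, eBayes with trend). P-values were adjusted by Benjamini-Hochberg over all genes, with a threshold of 0.05; the fit was checked on simulated data. SE is that of the fit. No dates or slides were given, so no batch was tested, and the number of arrays limits precision. Members and gene lists were chosen with earlier results of these data known. Named were members called for parity, up to 4 per role and direction otherwise, and a fixed panel; Adamts8, Adamts15 and Adamts20 were added after their values were seen, and list genes other than members were picked among those called. Alternatives were eBayes without trend, array weights, quantile normalization, dim probe sets left out, the mean of probe sets, replicate or pool blocks, the compared samples alone, and each sample left out. Promoters are RefSeq's (GRCm38.p6).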

Additional observations from a re-analysis of the deposited data

Results flagged for a closer look

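The parity effect differed among the 6 subpopulations for Adamts18 (moderated F test by limma, adjusted p = 0.00768). This gene fell in parous basal cells of both kinds and did not pass in luminal or stromal cells. Its luminal and stromal levels were 5.25 to 5.75, under the median of 6.0 over all genes. Little room was left there to measure a fall, so the test cannot set a smaller effect apart from a low level. The parity effect also differed for Adamts5 (adjusted p = 0.0194), which rose in parous total epithelial and basal CD49f-low cells. For Adamts5 the effect in basal CD49f-high cells differed from that in CD49f-low cells (-1.77, adjusted p = 0.0207), a comparison chosen after the values were seen. In 1 alternative, samples of 1 history with the same number were taken as 1 pool of mice, which the labels do not state. With this assumed pool as a random block, the F test gave adjusted p of 0.00446 for Adamts18 and 0.0107 for Adamts5. Without parous pool 2 it gave 0.114 and 0.156, and without nulliparous pool 1 it gave 0.023 and 0.103. Since 2000 CD49f-high cells were sorted per sample in place of 10000, cell number and CD49f class cannot be told apart. Groups of 2 or 3 samples were too small for a test of single outlying samples.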

How the results depend on the processing

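None of the calls tried under the alternatives changed sign, and differences that were not called were not followed. Of 77 calls between subpopulations 62 held in every setting, as did 3 of 12 parity calls of members and 5 of 27 of list genes. The counts of called members that moved by over 1.5 times were these. With array weights, 2 members passed for parity in luminal Sca1-negative cells, 4 in basal CD49f-low cells and 1 in basal CD49f-high cells, and 0 passed both for the difference of the parity effect between the basal subpopulations and for CD49f-high against CD49f-low cells. With the compared samples alone, 1 passed for parity in CD49f-low cells, 0 in CD49f-high cells, 0 for their difference and 1 for CD49f-high against CD49f-low cells. Without dim probe sets 1 passed in luminal Sca1-negative cells. Leaving out 1 sample gave 0 to 2 members in total epithelial cells, 0 to 1 in luminal Sca1-positive cells, 2 to 5 in basal CD49f-high cells, 0 to 2 for the difference between basal subpopulations and 2 to 5 for CD49f-high against CD49f-low cells. Where 1 sample was left in a group, it was assumed to vary like the other groups. Leaving out whole pools, or basal CD49f-high cells from the mean, was added after seeing the data. Without parous pool 2, 0 members passed in total epithelial cells, 0 for the difference between basal subpopulations and 0 in the F test. Without nulliparous pool 1, 1 passed in luminal Sca1-positive cells, 5 in basal CD49f-high cells and 0 for the difference, and without nulliparous pool 3, 2 passed for the difference. How many of all genes passed in each setting is not given here, so these counts do not describe the members apart from all genes. The cause of these shifts was not tested.

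Parous and nulliparous samples were not taken as paired by their replicate number. Deviations of parous and nulliparous samples with the same number correlated at -0.05 to 0.225 over 17 pairs (4 over 0.1), and those of 1 history across subpopulations at 0.012 to 0.338 over 85 pairs (43 over 0.1). The second kind was highest among nulliparous samples, such as 0.332, 0.174 and 0.279 for total epithelial with basal CD49f-high cells, so samples of 1 history with the same number may share mice, which the labels do not state. With the replicate block, 5 members passed for parity in basal CD49f-high cells in place of 3. No other count moved by over 1.5 times with it, and the share of all genes called is not given here. Quantile normalization moved the median difference of all genes by at most 0.037.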
